A study of Mus musculus with 4 samples.

Results

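The genes described here are 9 of the MHC class I presentation pathway, H2-D1, H2-K1, B2m, Tap1, Tap2, Tapbp, Psmb8, Psmb9 and Nlrc5, taken by symbol from the 32285 genes of a single-cell RNA sequencing study of mouse brain. All 9 were found. The series examined hypertension and hippocampal inflammation, and it held 4 libraries, from DOCA-salt hippocampus, sham hippocampus, DOCA-salt sensory cortex and sham sensory cortex. Every mouse was wild type, and no age was used here. DOCA-salt is deoxycorticosterone acetate given with salt, a common rodent model of high blood pressure, and sham is its control. The labels give 3 mice per group, without saying whether their cells were pooled. Each group is 1 library, so no difference between treatments or tissues has a replicate check and no test was run.

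Nearly all nucleated cells show peptides from their own proteins to CD8 T cells on class I molecules. The proteasome cuts the proteins, the TAP transporter carries the peptides into the endoplasmic reticulum, and tapasin helps load them onto a heavy chain paired with beta-2 microglobulin. Interferons raise the whole pathway through STAT and IRF factors and the activator NLRC5. In healthy brain, microglia and blood vessel cells are known to carry more class I than neurons or oligodendrocytes.

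H2-D1 and H2-K1 encode the classical heavy chains H-2D and H-2K, and B2m encodes the light chain that both need. Tap1 and Tap2 encode the chains of the TAP transporter, and Tapbp encodes tapasin. Psmb8 and Psmb9 encode catalytic subunits of the immunoproteasome, which take the places of Psmb5 and Psmb6 in the constitutive form. On GRCm38, the GENCODE annotation puts 7 members on chromosome 17. H2-K1 spans 33996017 to 34000347 on the minus strand, Tapbp 33915899 to 33929292 on the plus strand, and H2-D1 35262730 to 35267499 on the plus strand. The other 4 lie next to each other, with Psmb9 at 34181987 to 34187764 on the minus strand, and Tap1 at 34187553 to 34197225, Psmb8 at 34197721 to 34201454 and Tap2 at 34203527 to 34216321 on the plus strand. B2m lies at 122147686 to 122153083 on chromosome 2, and Nlrc5 at 94434356 to 94527272 on chromosome 8, both on the plus strand. The genes of Tap1 and Psmb9 overlap on opposite strands, as do B2m and Patl2, Tapbp and Gm19412, and both Tap2 and Psmb8 with Gm20496. Tap2 also overlaps Gm15821, and Nlrc5 overlaps 9330175E14Rik, on the opposite strand. On the same strand Tapbp overlaps Zbtb22, and Nlrc5 overlaps Mir7072. The counting strand is not given in the sources used here, so reads in the opposite-strand overlaps cannot be assigned to a strand. Strand would not separate reads in the same-strand ones. H2-D1 and H2-K1 are closely related copies, but in the last 600 bases of their transcripts, where a 3′ library reads, they shared no stretch of 60 bases. In that part, 4.07% of such stretches of H2-D1 also lay in other genes, and for the other 8 members the share was 0%.

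Promoter sequences, from 250 bases before to 50 bases after the start, were found in RefSeq on GRCm38.p6 for 7 of the 9 members. The heavy chains and the light chain are shown because they carry the largest UMI counts below and because their windows hold an NF-kB site next to an interferon regulatory factor (IRF) core. The windows are chr17:35262844-35263143 on the plus strand for H2-D1, chr17:34000298-34000597 on the minus strand for H2-K1 and chr2:122147437-122147736 on the plus strand for B2m. Each reads 5′ to 3′ along the gene, and capitals mark the NF-kB and IRF core matches on either strand.
H2-D1: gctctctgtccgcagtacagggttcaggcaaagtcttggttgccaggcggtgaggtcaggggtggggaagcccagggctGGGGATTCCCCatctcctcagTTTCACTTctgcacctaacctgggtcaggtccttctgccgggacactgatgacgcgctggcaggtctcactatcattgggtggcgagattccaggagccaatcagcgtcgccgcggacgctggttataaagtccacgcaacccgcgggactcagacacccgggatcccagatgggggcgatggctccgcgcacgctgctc
H2-K1: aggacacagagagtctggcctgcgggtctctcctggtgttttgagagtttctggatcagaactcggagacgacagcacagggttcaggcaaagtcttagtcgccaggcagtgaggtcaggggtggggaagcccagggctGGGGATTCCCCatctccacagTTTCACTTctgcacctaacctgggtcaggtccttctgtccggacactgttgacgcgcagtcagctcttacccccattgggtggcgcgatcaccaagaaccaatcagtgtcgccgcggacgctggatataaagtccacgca
B2m: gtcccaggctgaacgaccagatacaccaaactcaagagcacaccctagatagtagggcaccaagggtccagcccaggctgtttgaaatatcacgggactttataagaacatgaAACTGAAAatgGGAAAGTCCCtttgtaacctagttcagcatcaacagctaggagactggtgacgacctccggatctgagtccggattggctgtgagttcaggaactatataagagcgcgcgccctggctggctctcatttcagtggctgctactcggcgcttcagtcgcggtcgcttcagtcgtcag
The IRF core searched was AANNGAAA, on both strands. It was found in 3 of the 7 members, H2-D1, H2-K1 and B2m, and in 23.9% of all 32851 RefSeq promoter windows. The NF-kB motif was in the same 3 members, and in 8.46% of all windows. In both heavy chain genes the capitals are the same letters in the same order, while in B2m the IRF core precedes the NF-kB match. The Y box CCAAT was found in 6 of the 7 members, all but Psmb8, and in 37.4% of all windows. The STAT motif TTCNNNGAA was found in Psmb8 alone among the members, and in 8.30% of all windows. Tap1 and Psmb9 start 226 bases apart on opposite strands, so their windows share 275 bases. The Y box matches of Tap1 and Psmb9 are the same bases read from opposite strands, so the same site is counted for both.

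The libraries held 11159 to 11402 barcodes and 66824217 to 70173987 UMIs, the molecules counted after amplification copies are removed. After filters and removal of doublets, 10349 to 10761 cells per library remained, with a median of 5538 to 5850 UMIs each. Any pair of libraries shared 81 to 96 cell barcodes, at most 0.901% of the smaller library. Every treatment comparison below rests on the titles of the libraries. A second label that states the treatment goes with the tissue instead, so it disagrees with the titles of the DOCA-salt cortex and sham hippocampus libraries. Cells were assigned to 18 classes by 8 marker genes each, none of which is a member. Class names below stand for these marker-gated cells, microglia-like, endothelial-like and so on, and may differ from the names of the submitters. Levels are UMIs of a gene per 1000000 UMIs of the class in that library (CPM). Intervals are exact at 95% and cover counting error only, neither the spread between cells nor that between mice.

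Class I genes were highest in immune and vessel cells. By the mean over libraries, T or NK cells led for 8 of the 9 among 8 classes. Oligodendrocytes were lowest by it for all but H2-D1. The range of T or NK cells overlapped that of the next class for Tap2 and Psmb9. That of oligodendrocytes overlapped the class above for Tap1, Tap2, Tapbp, Psmb8 and Nlrc5. B2m was at 4074 to 4711 CPM over the 4 libraries in T or NK cells, 2156 to 2870 CPM in border macrophages, 2079 to 2470 CPM in microglia and 1936 to 2325 CPM in endothelial cells. It was at 620 to 899 CPM in pericytes, 150 to 226 CPM in astrocytes and 119 to 149 CPM in oligodendrocytes. The ranges of border macrophages, microglia and endothelial cells overlapped, and so those 3 do not differ in B2m beyond the spread over libraries. T or NK cells lay above all other classes, and astrocytes above oligodendrocytes, without overlap. T or NK cells numbered only 21 to 55 per library.

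The heavy chains split the vessel and microglial classes. H2-D1 was at 967 to 1146 CPM in endothelial cells and 659 to 831 CPM in microglia, with no overlap, and endothelial cells were 1.26 to 1.74 times microglia within each library. H2-K1 was at 615 to 759 CPM in endothelial cells and 629 to 775 CPM in microglia, so these did not differ beyond the spread. In astrocytes H2-K1 was at 128 to 151 CPM, above oligodendrocytes at 56.7 to 76.9 CPM. H2-D1 was at 38.4 to 67.8 CPM in astrocytes and 53.6 to 82.1 CPM in oligodendrocytes, an order opposite to that of H2-K1, in ranges that overlapped. The class order of the heavy chains thus depended on which chain was read.

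The share of H2-K1 among the UMIs of both heavy chains shows the same split within each library. Astrocytes had 69.0% and 73.2% in DOCA-salt hippocampus and cortex and 73.8% and 77.0% in sham hippocampus and cortex. Microglia had 48.1 to 50.9%, oligodendrocytes 48.4 to 51.4% and endothelial cells 37.9 to 41.2%. Ependymal cells, which line the ventricles and were numerous only in hippocampus, had 64.1% (95% interval 57.3 to 70.4) in DOCA-salt and 61.6% (54.7 to 68.2) in sham. At the other end, 41 neutrophils of DOCA-salt hippocampus had 13.2% (10.7 to 16.1). The other 3 libraries had 4 to 9 neutrophils each, with shares of 11.03 to 23.8%. B cells had 41.1 to 44.5%. The 3′ ends of the 2 genes can be read with unequal efficiency, so the share compares classes and does not say which chain is more abundant.

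**Figure D1:**
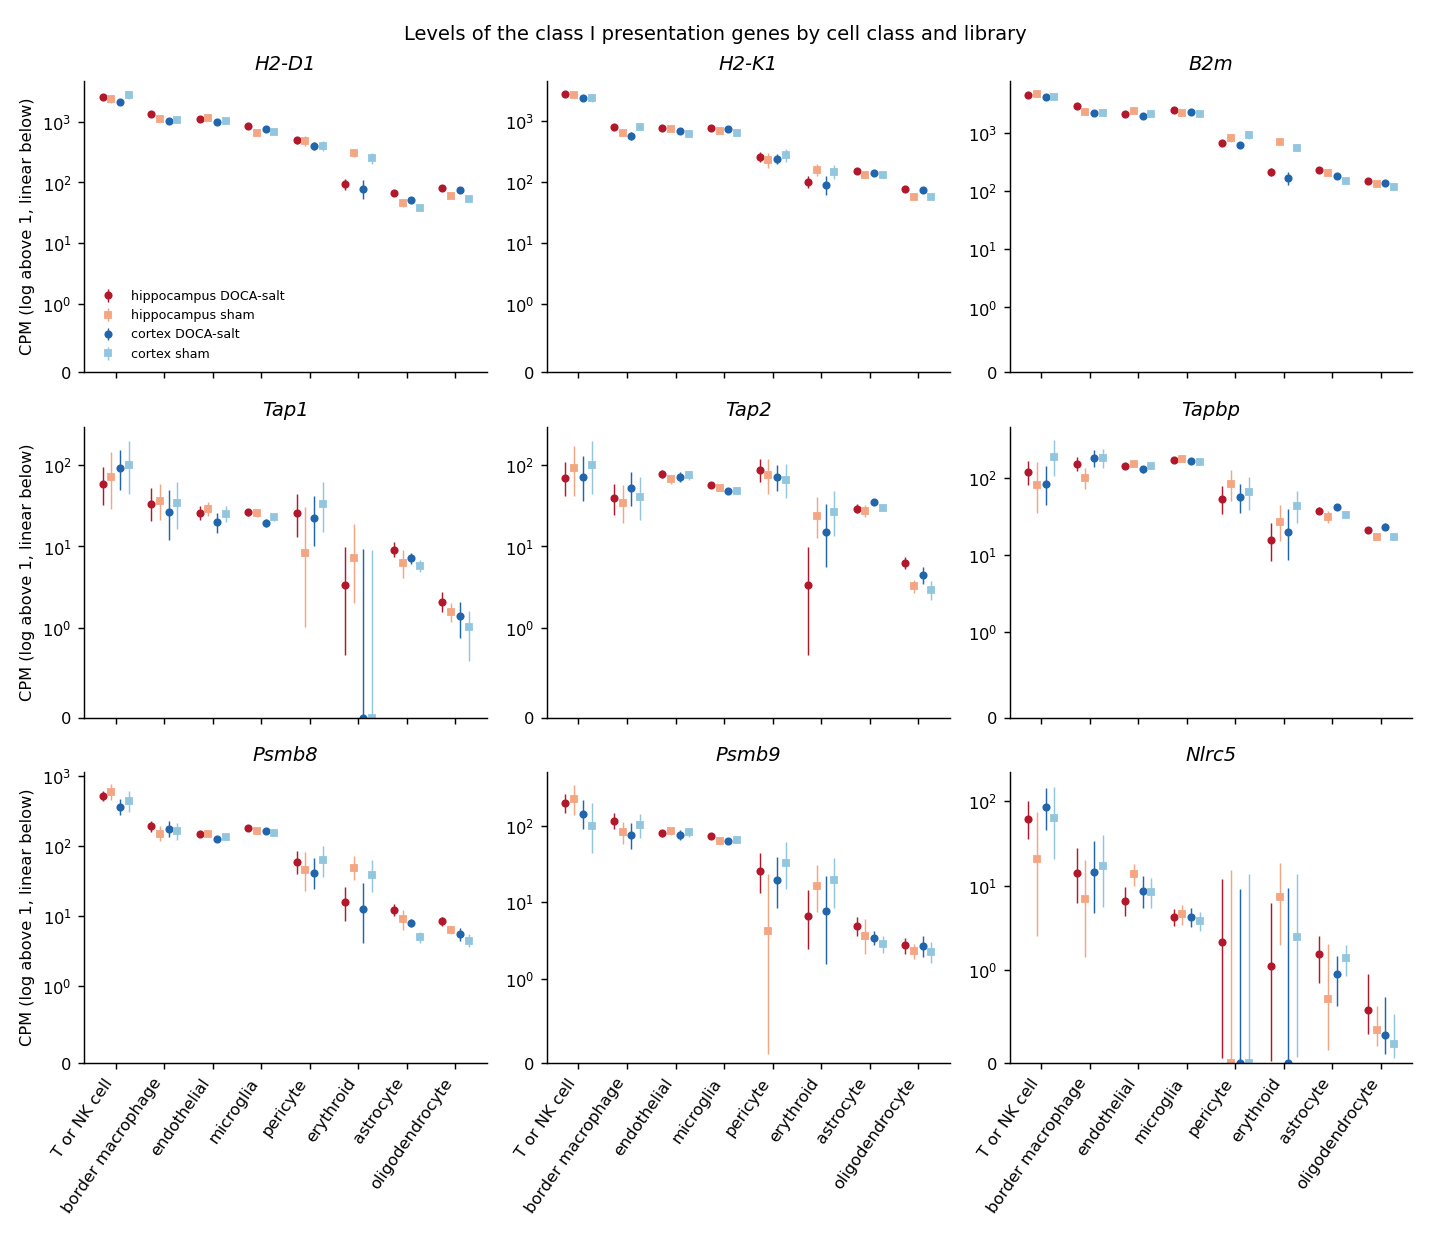
Levels of the 9 genes (CPM, log scale above 1 and linear below) in 8 cell classes, 1 point per library with its 95% counting interval. T or NK cells, border macrophages, microglia and endothelial cells lie above astrocytes and oligodendrocytes, except that Tap2 in astrocytes, at 27.5 to 35.4 CPM, reaches the range of border macrophages.

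Tap2 followed another order than its partner Tap1. Astrocytes had 27.5 to 35.4 CPM of Tap2, and microglia, at 48.0 to 56.8 CPM, were only 1.36 to 1.93 times as high. Tap1 in astrocytes was 5.74 to 9.15 CPM, against 19.6 to 26.3 CPM in microglia. Pericytes, the mural cells of capillaries, had 66.0 to 87.6 CPM of Tap2, close to endothelial cells at 67.4 to 78.8 CPM. Oligodendrocytes had 2.88 to 6.25 CPM. By the mean over libraries, Tapbp was the only member not led by T or NK cells. It was at 163 to 177 CPM in microglia, 132 to 154 CPM in endothelial cells and 81.9 to 191 CPM in T or NK cells. The range of T or NK cells overlapped both others, while that of microglia lay above that of endothelial cells. Nlrc5 was low everywhere, at 20.5 to 85.3 CPM in T or NK cells, 6.62 to 13.6 CPM in endothelial cells, 3.76 to 4.54 CPM in microglia and under 2 CPM in astrocytes and oligodendrocytes.

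The immunoproteasome genes separated microglia from astrocytes and oligodendrocytes, and endothelial cells from oligodendrocytes, more sharply than the heavy chains did. Between endothelial cells and astrocytes this did not hold in every library against H2-D1. Psmb8 was at 367 to 594 CPM in T or NK cells, 156 to 184 CPM in microglia and 127 to 150 CPM in endothelial cells, against 4.92 to 12.2 CPM in astrocytes and 4.43 to 8.32 CPM in oligodendrocytes. Psmb9 was at 63.2 to 74.3 CPM in microglia and 76.6 to 86.5 CPM in endothelial cells, against 2.80 to 4.88 CPM in astrocytes and 2.22 to 2.72 CPM in oligodendrocytes. Psmb8 made up 57.8 to 61.4% of the summed UMIs of Psmb8 and Psmb5 in microglia, 39.2 to 42.9% in endothelial cells and 74.7 to 81.9% in T or NK cells. In astrocytes it was 2.30 to 6.33%, and in oligodendrocytes 1.86 to 3.57%. The third inducible subunit, Psmb10, kept a larger part in astrocytes, 24.4 to 29.1% of the UMIs of Psmb10 and Psmb7, against 9.08 to 9.87% in oligodendrocytes.

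**Figure D2:**
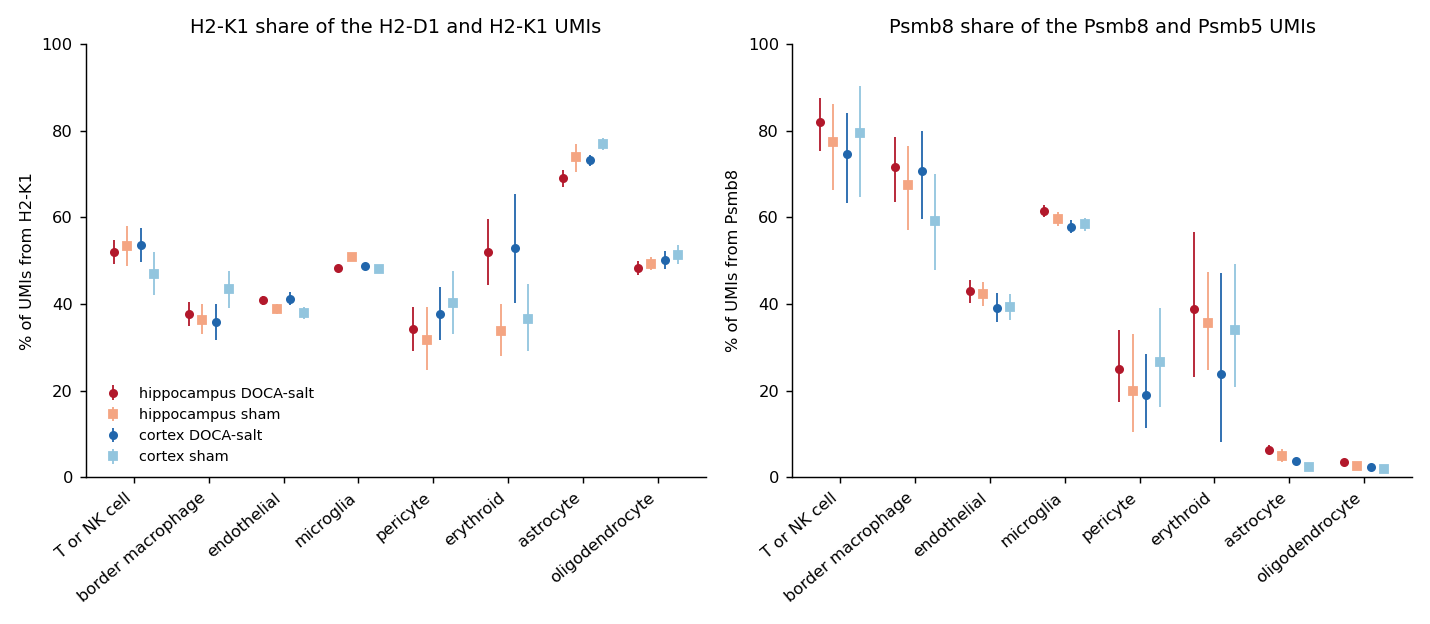
Left, H2-K1 as a percent of the UMIs of H2-D1 and H2-K1. Right, Psmb8 as a percent of the UMIs of Psmb8 and Psmb5. Each point is 1 library in 1 cell class with its exact 95% interval. Astrocytes stand highest on the left, at 69.0 to 77.0%, and with oligodendrocytes lowest on the right.

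Low levels in astrocytes and oligodendrocytes have to be set beside RNA from other cells. All 8 microglial markers were detected in both classes, and their summed level was 2.06 to 3.38% of that in microglia. The 8 endothelial markers summed to 0.619 to 1.04% of their level in endothelial cells. If members came along in the same proportion, these shares would give 61.6 to 103% of the Psmb8 level in astrocytes and 66.2 to 82.9% of Psmb9. For H2-D1 in astrocytes the corresponding share was 56.1 to 65.2%, for B2m 40.4 to 50.3%, for H2-K1 16.4 to 21.8% and for Tap2 6.02 to 8.97%. In oligodendrocytes it was 34.6 to 44.0% for H2-D1 and 30.8 to 34.9% for H2-K1. Psmb8 and Psmb9 in astrocytes and oligodendrocytes are therefore read here as close to background, while H2-K1 and Tap2 in astrocytes lay well above it.

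In microglia the heavy chains and B2m were higher in DOCA-salt than in sham in both tissues, by small ratios, while the cells also differed in quality and marker values. H2-D1 was at 831 CPM in DOCA-salt and 659 CPM in sham hippocampus, a ratio of 1.26 (1.23 to 1.30), and at 765 CPM in DOCA-salt and 680 CPM in sham cortex, a ratio of 1.13 (1.10 to 1.16). H2-K1 was at 775 CPM in DOCA-salt and 683 CPM in sham hippocampus and at 732 CPM in DOCA-salt and 629 CPM in sham cortex, ratios of 1.14 (1.10 to 1.17) and 1.16 (1.13 to 1.20). B2m was at 2470 CPM in DOCA-salt and 2198 CPM in sham hippocampus, and at 2244 CPM in DOCA-salt and 2079 CPM in sham cortex, ratios of 1.12 and 1.08. For all 3 genes both DOCA-salt libraries lay above both sham libraries, though for B2m the gap between DOCA-salt cortex and sham hippocampus was small. Ratios of the transport and loading genes in hippocampus and cortex were 1.02 and 0.859 for Tap1 and 1.09 and 0.989 for Tap2. Those of Tapbp were 0.972 and 1.04. Every one of these 6 intervals included 1. In hippocampus these genes lay nearer to 1 than the heavy chains and B2m. In cortex Tap1 lay below 1 and about as far from it as H2-K1 lay above.

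Other values moved with treatment in the same cells. The median share of mitochondrial UMIs in microglia was 1.10% in DOCA-salt and 0.767% in sham hippocampus, and 1.29% in DOCA-salt and 0.840% in sham cortex. It was also higher in DOCA-salt oligodendrocytes and endothelial cells of both tissues and lower in DOCA-salt astrocytes of both. The 8 microglial markers summed to 8856 CPM in DOCA-salt and 10141 CPM in sham hippocampus, and to 7640.5 CPM in DOCA-salt and 9289 CPM in sham cortex. The own markers of oligodendrocytes, astrocytes and endothelial cells were likewise lower in DOCA-salt in both tissues. The part of these differences in the member ratios was not tested.

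No member reached a 1.5-fold difference in microglia of either tissue, against 6.36% of the 14102 genes measured that were at least 1.5-fold higher in hippocampus and 8.1% of the 14024 in cortex, and 6.01% and 3.2% that were as much lower. The counting interval lay above 1 for 5 of the 9 members in hippocampus, against 12.7% of all genes, and for 4 of 9 in cortex, against 15.5%. H2-D1, H2-K1, B2m and Psmb8 were in both counts and Psmb9 in that of hippocampus. No member had an interval below 1, beside 15.1% and 14.8% of genes. At least 25% higher were 1 member in hippocampus, H2-D1, beside 12.5% of genes, and 0 in cortex, beside 17.1%. An interval excludes 1 more easily for a gene with many UMIs, and H2-D1 alone had 13904 in DOCA-salt and 8280 in sham hippocampal microglia. The median log2 ratio of the members was 0.15 in hippocampus and 0.09 in cortex, beside −0.02 and 0.01 over all genes.

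**Figure D3:**
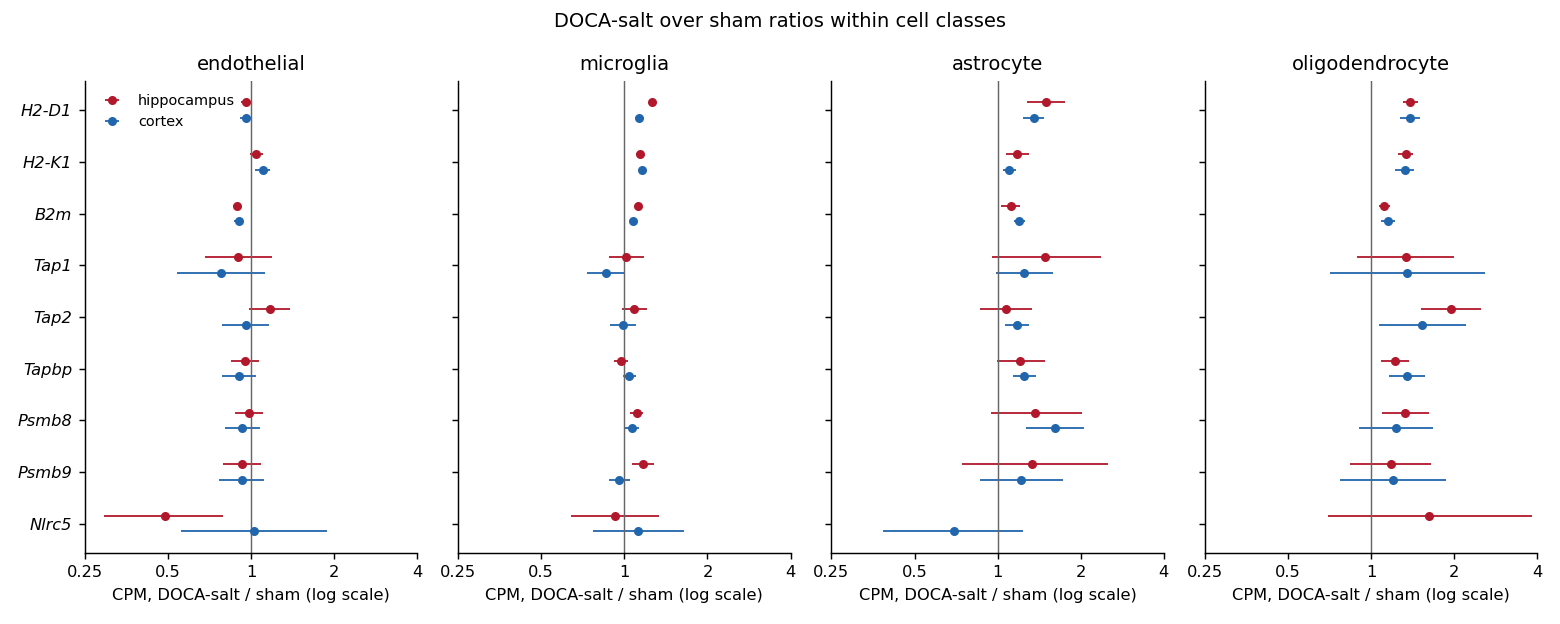
Ratio of CPM in DOCA-salt over sham (log scale) for the 9 genes in 4 cell classes, with 95% counting intervals, in hippocampus and cortex. H2-D1 and H2-K1 lie right of 1 in microglia, astrocytes and oligodendrocytes of both tissues, and in endothelial cells B2m lies left of 1, at 0.889 and 0.904.

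In oligodendrocytes both heavy chains were higher in DOCA-salt than in sham, by like ratios in both tissues. H2-D1 was at 82.1 CPM in DOCA-salt and 59.2 CPM in sham hippocampus, a ratio of 1.39 (1.30 to 1.48), and at 74.4 CPM in DOCA-salt and 53.6 CPM in sham cortex, a ratio of 1.39 (1.28 to 1.51). H2-K1 was at 76.9 CPM in DOCA-salt and 57.6 CPM in sham hippocampus, and 74.9 CPM in DOCA-salt and 56.7 CPM in sham cortex, ratios of 1.34 (1.253 to 1.42) and 1.32 (1.22 to 1.44). For both chains the 2 DOCA-salt libraries lay above the 2 sham libraries. Tap2 was at 6.25 CPM in DOCA-salt and 3.21 CPM in sham hippocampus, from 154 and 110 UMIs, a ratio of 1.95 (1.51 to 2.51). In cortex it was at 4.41 CPM in DOCA-salt and 2.88 CPM in sham, from 73 and 56 UMIs, a ratio of 1.53 (1.07 to 2.21). Tapbp had ratios of 1.22 and 1.35, and B2m of 1.12 and 1.15.

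At least 1.5-fold higher in DOCA-salt oligodendrocytes were 2 of 9 members in hippocampus, Tap2 and Nlrc5, beside 9.29% of the 15072 genes measured. In cortex it was 1 of the 8 measured members, Tap2, beside 8.5% of 13972 genes. Nlrc5 rested on 14 UMIs in DOCA-salt and 12 in sham. None was as much lower, beside 4.97% and 4.44% of genes. The interval lay above 1 for 6 members in hippocampus and 5 in cortex, beside 23.8% and 18.6% of genes, and below 1 for none, beside 13.6% and 14.6%. At least 25% higher were 6 and 5 members, beside 19.9% and 18.7% of genes. Nlrc5 was not measured in cortex oligodendrocytes, where it had 5 UMIs in DOCA-salt and 4 in sham, under the minimum of 20. The median log2 ratio of the members was 0.42 in each tissue, beside 0.05 and 0.03 over all genes. With equal weight for each cell it was 0.55 in hippocampus and 0.18 in cortex.

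The summed level of the microglial markers in hippocampal oligodendrocytes was 229 CPM in DOCA-salt and 209 CPM in sham, and in cortical ones 197 CPM in DOCA-salt and 216 CPM in sham. When microglial and endothelial RNA estimated from the markers was subtracted, the log2 ratio of H2-D1 was 0.51 in hippocampus and 0.70 in cortex, that of H2-K1 0.43 and 0.47, and that of B2m −0.01 and 0.30. After subtraction B2m in hippocampal oligodendrocytes thus showed almost no difference, and no interval was computed. The subtracted share is the marker level in the class over that in microglia or endothelial cells, which was lower in DOCA-salt. In cortical oligodendrocytes the microglial share was 2.58% in DOCA-salt and 2.32% in sham, though the marker level there was lower in DOCA-salt. Of the 2905 cells in 1 oligodendrocyte cluster, 2779 came from sham hippocampus. Without clusters that come almost whole from 1 library, the log2 ratios in hippocampal oligodendrocytes were 0.38 for H2-D1, 0.25 for H2-K1, 0.08 for B2m and 1.02 for Tap2.

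In astrocytes, H2-D1 had the largest of the ratios of the heavy chains and B2m. It was at 67.8 CPM in DOCA-salt and 45.4 CPM in sham hippocampus, a ratio of 1.49 (1.27 to 1.76), and at 51.8 CPM in DOCA-salt and 38.4 CPM in sham cortex, a ratio of 1.35 (1.24 to 1.48). H2-K1 was at 151 CPM in DOCA-salt and 128 CPM in sham hippocampus and at 141 CPM in DOCA-salt and 128 CPM in sham cortex, ratios of 1.18 (1.07 to 1.30) and 1.10 (1.05 to 1.16). B2m was at 226 CPM in DOCA-salt and 203 CPM in sham hippocampus, and at 180 CPM in DOCA-salt and 150 CPM in sham cortex, ratios of 1.11 (1.03 to 1.20) and 1.20 (1.145 to 1.255). Both DOCA-salt libraries exceeded both sham libraries for the 2 heavy chains, though not for B2m, where DOCA-salt cortex lay below sham hippocampus. With marker-estimated microglial and endothelial RNA subtracted, the log2 ratio of H2-D1 was 0.88 in hippocampus and 0.48 in cortex, that of H2-K1 0.20 and 0.06, and that of B2m 0.04 and 0.16. Tapbp had ratios of 1.21 and 1.248 and Tap2 of 1.07 and 1.17.

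Among the astrocyte ratios none of the 8 measured members reached 1.5-fold in hippocampus, where 7.67% of the 13537 genes were at least 1.5-fold higher and 4.89% as much lower. In cortex 1 of 9 did, beside 9.07% of 15406 genes higher and 3.1% lower. That member was Psmb8, at 7.90 CPM in DOCA-salt and 4.92 CPM in sham, a ratio of 1.61 (1.26 to 2.06), in the class where its level is close to background. The interval lay above 1 for 3 members in hippocampus and 6 in cortex, beside 11.9% and 22.9% of genes, and below 1 for none, beside 9.9% and 14.5%. At least 25% higher were 4 and 2 members, beside 17.4% and 19.5% of genes. The median log2 ratio was 0.34 in hippocampus and 0.28 in cortex, beside 0.03 and 0.05 over all genes.

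In endothelial cells B2m was lower in DOCA-salt than in sham and the heavy chain ratios lay between 0.959 and 1.10. B2m was at 2067 CPM in DOCA-salt and 2325 CPM in sham hippocampus and 1936 CPM in DOCA-salt and 2143 CPM in sham cortex, ratios of 0.889 (0.862 to 0.916) and 0.904 (0.871 to 0.937). The 2 DOCA-salt libraries lay below the 2 sham libraries. H2-D1 was at 1099 CPM in DOCA-salt and 1146 CPM in sham hippocampus and at 967 CPM in DOCA-salt and 1007 CPM in sham cortex, ratios of 0.959 and 0.960 whose intervals included 1. H2-K1 was at 759 CPM in DOCA-salt and 726 CPM in sham hippocampus, a ratio of 1.05 (0.993 to 1.10), and at 677 CPM in DOCA-salt and 615 CPM in sham cortex, a ratio of 1.10 (1.03 to 1.18). Nlrc5 had 28 UMIs in DOCA-salt and 47 in sham hippocampus, a ratio of 0.487 (0.294 to 0.794), but 23 and 25 UMIs in DOCA-salt and sham cortex, a ratio of 1.03 (0.558 to 1.89). It was the only member at least 1.5-fold lower, beside 5.03% of the 11760 genes in hippocampus, and in cortex no member was, beside 5.04% of 11239. None was at least 1.5-fold higher, beside 9.25% and 7.9% of genes, and none at least 25% higher, beside 20.7% and 18.8%. Members with intervals below 1 were B2m and Nlrc5 in hippocampus, beside 8.66% of genes, and B2m in cortex, beside 7.64%. H2-K1 in cortex was the only one with an interval above 1, beside 11.8% of genes in hippocampus and 9.05% in cortex. The median log2 ratio was −0.07 in hippocampus and −0.10 in cortex, beside 0.04 and 0.03 over all genes. Without the cells of the interferon gate described next, it changed sign, to 0.03 and 0.02.

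Endothelial cells also differed between treatments in how many carried interferon-stimulated genes. Cells were gated on UMIs of at least 3 of 12 such genes, none of them a member. In endothelial cells the gate took 25.4% (22.6 to 28.2) in DOCA-salt and 42.6% (39.2 to 46.1) in sham hippocampus, and 19.7% (16.7 to 22.996) in DOCA-salt and 37.4% (33.8 to 41.2) in sham cortex. In microglia it took 18.5% in DOCA-salt and 36.4% in sham hippocampus, and 16.6% in DOCA-salt and 19.5% in sham cortex. Gated cells were deeper, with medians of 4597 to 4960 UMIs against 3141 to 3633 in other endothelial cells, so the shares depend on depth. With every cell thinned to 2000 UMIs, the endothelial shares were 9.90% in DOCA-salt and 22.9% in sham hippocampus and 7.23% in DOCA-salt and 17.5% in sham cortex, with 96 to 142 shallower cells per library left out. The thinned microglial shares were 8.18% in DOCA-salt and 21.98% in sham hippocampus and 9.51% in DOCA-salt and 10.3% in sham cortex. From microglia 153 to 183 shallower cells per library were left out. As a measure of background, the gate took 0.0698 to 0.552% of oligodendrocytes and 0.789 to 1.44% of astrocytes before thinning, and at most 0.143% of either after it.

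Within endothelial cells, the gated cells had more B2m than the others in all 4 libraries, by 1.15 to 1.33 times, and more H2-K1, by 1.11 to 1.31 times, with every interval above 1. H2-D1 differed less, by 1.01 to 1.12 times, with 2 of 4 intervals above 1. Point ratios were 1.38 to 2.11 for Tap1, 1.17 to 1.51 for Psmb8 and 1.502 to 2.82 for Nlrc5, each with 2 of 4 intervals above 1. Tap2 also had 2 of 4 above 1, with ratios from 0.917 to 1.52. In microglia the gate made almost no difference to the heavy chains, at 0.958 to 0.980 for H2-D1 and 1.03 to 1.04 for H2-K1, with every interval including 1. Tapbp was the only member with all 4 microglial intervals above 1, at 1.14 to 1.36. B2m had 3 of 4 above 1, at 1.01 to 1.10. Gated microglia had medians of 5753 to 6739 UMIs against 5277.5 to 6078 in other microglia, a smaller gap than in endothelial cells. These gate ratios were not computed on thinned cells, and the part of depth in them was not tested. The share of all genes with such intervals was not computed.

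With the gated cells set aside, the B2m ratio of DOCA-salt over sham in hippocampal endothelial cells was 0.976 (0.934 to 1.02), at 1924 CPM in DOCA-salt and 1971 CPM in sham. In cortex it was 0.951 (0.907 to 0.998), at 1863 CPM in DOCA-salt and 1959 CPM in sham. Among the gated cells alone it was 0.896 (0.858 to 0.937) in hippocampus and 0.917 (0.862 to 0.975) in cortex. In hippocampus the interval excluded 1 in gated cells and included it in the others, and the difference between these ratios was not tested. H2-K1 in the endothelial cells outside the gate was higher in DOCA-salt in both tissues, with ratios of 1.17 (1.09 to 1.27) and 1.11 (1.02 to 1.21). Among the gated ones its ratio was 1.01 (0.932 to 1.09) in hippocampus and 1.18 (1.05 to 1.31) in cortex. H2-D1 had ratios of 0.922 (0.863 to 0.984) and 0.948 (0.865 to 1.04) in gated cells of hippocampus and cortex. In the others they were 1.01 (0.955 to 1.08) and 0.999 (0.933 to 1.07). In microglia the H2-D1 ratio was alike on both sides of the gate, at 1.27 in gated cells and 1.247 in others in hippocampus, and at 1.12 and 1.13 in cortex.

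**Figure D4:**
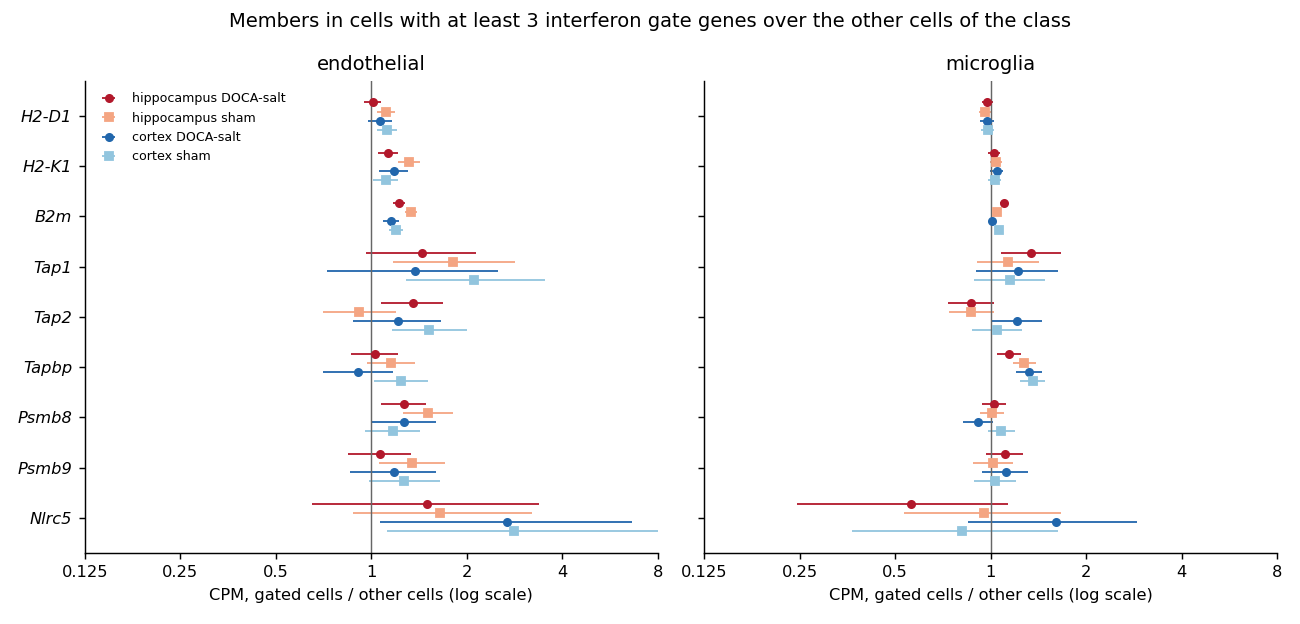
Ratio of CPM in cells with at least 3 interferon gate genes over the other cells of the class (log scale), for each gene and library in endothelial cells and microglia. Bars are 95% counting intervals, drawn no further than the axis. In endothelial cells B2m and H2-K1 lie right of 1 in all 4 libraries, while in microglia H2-D1 and H2-K1 lie at 0.958 to 1.04.

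Smaller classes did not follow one direction. In border macrophages, resident macrophages of the brain's linings, H2-K1 was at 798 CPM in DOCA-salt and 633 CPM in sham hippocampus, a ratio of 1.26 (1.08 to 1.47). In cortex it was at 570 CPM in DOCA-salt and 805 CPM in sham, a ratio of 0.708 (0.583 to 0.859). B2m in the same cells had ratios of 1.27 (1.17 to 1.38) and 1.03 (0.925 to 1.15). Pericytes had B2m ratios of 0.807 (0.672 to 0.970) in hippocampus and 0.690 (0.576 to 0.826) in cortex. The 8 endothelial markers in pericytes summed to 2418 CPM in DOCA-salt and 2417 CPM in sham hippocampus and to 1705 CPM in DOCA-salt and 2952 CPM in sham cortex, and their part in the B2m ratios was not tested.

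Measured over whole libraries, class makeup enters these ratios. In hippocampus the whole-library ratio of DOCA-salt over sham was 1.51 for H2-D1, 1.46 for H2-K1 and 1.37 for B2m. Over the 4 large classes alone, at their own shares, the ratio was 1.45, 1.42 and 1.34. With these classes held at equal shares in both libraries it was 1.20, 1.14 and 1.08. Oligodendrocytes, a class with low levels of all 3 genes, gave 41.6% of the UMIs of gated cells in DOCA-salt and 57.8% in sham hippocampus, and microglia gave 28.2% in DOCA-salt and 21.2% in sham. In cortex the whole-library ratios were 1.12, 1.17 and 1.07 and those at equal shares 1.12, 1.16 and 1.07.

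Among 39 other genes of the pathway, Calr and Pdia3 were lower in DOCA-salt in all 4 classes and both tissues, with every interval below 1. Of the 5 peptide loading genes, 2 to 3 had an interval below 1 in each class and tissue, beside 7.64 to 15.1% of all genes. From 0 to 1 had one above it, beside 9.05 to 23.8%. Of the 10 further heavy chain genes, 7 to 9 were measured per class and tissue. From 1 to 4 of them had an interval above 1, beside the same 9.05 to 23.8%. The 1 of 8 in hippocampal astrocytes and in cortical endothelial cells was near the shares there, 11.9% and 9.05%. None of the heavy chain genes had one below 1, except 2 each in cortical microglia and cortical endothelial cells, beside 14.8% and 7.64%. Calr encodes calreticulin, a chaperone of the loading complex. Its ratios in hippocampus and cortex were 0.859 and 0.867 in microglia, 0.658 and 0.567 in oligodendrocytes, 0.691 and 0.664 in astrocytes, and 0.736 and 0.730 in endothelial cells. Pdia3, the thiol oxidoreductase ERp57 that works beside tapasin, was at 0.833 and 0.831 in microglia and 0.760 and 0.678 in oligodendrocytes. Tapbp, whose product sits in the same complex, was at 0.972 and 1.04 in microglia and 1.22 and 1.35 in oligodendrocytes.

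H2-Q6 and H2-Q7, nonclassical heavy chain genes of the Qa-2 family, were higher in DOCA-salt microglia, at 1.52 and 1.54 for H2-Q6 and 1.54 and 1.47 for H2-Q7 in hippocampus and cortex. H2-Q7 was also higher in endothelial cells, at 1.44 and 1.45. These copies resemble each other, so how reads were split between them is uncertain. Mr1, whose product shows vitamin B metabolites to T cells, was at 1.54 (1.13 to 2.14) and 1.85 (1.57 to 2.19) in astrocytes.

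Of the regulators, Irf1, an interferon-induced activator of class I genes, had ratios in hippocampus and cortex of 1.15 and 1.13 in microglia, 1.74 and 1.60 in oligodendrocytes, 1.37 and 1.92 in astrocytes and 1.16 and 1.42 in endothelial cells. Its interval included 1 in hippocampal endothelial cells, at 0.992 to 1.36. Irf9, the DNA-binding part of the type I interferon complex, was at 0.691 and 0.644 in endothelial cells. Ifnar1, a chain of the type I interferon receptor, was at 1.27 and 1.33 in endothelial cells. Median log2 ratios of the whole list in hippocampus were 0.08 in microglia, 0.11 in oligodendrocytes, 0.16 in astrocytes and 0.09 in endothelial cells, and in cortex between −0.00 and 0.09. At least 1.5-fold higher were 2 to 5 genes of the 36 to 38 measured per class in hippocampus, beside 6.36 to 9.29% of all genes, and 1 to 3 were as much lower, beside 4.89 to 6.01%. In cortex 0 to 4 of 35 to 37 were higher, beside 7.9 to 9.07% of all genes, and 0 to 2 lower, beside 3.1 to 5.04%. Cortical endothelial cells had 0 higher and 2 lower.

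**Figure D5:**
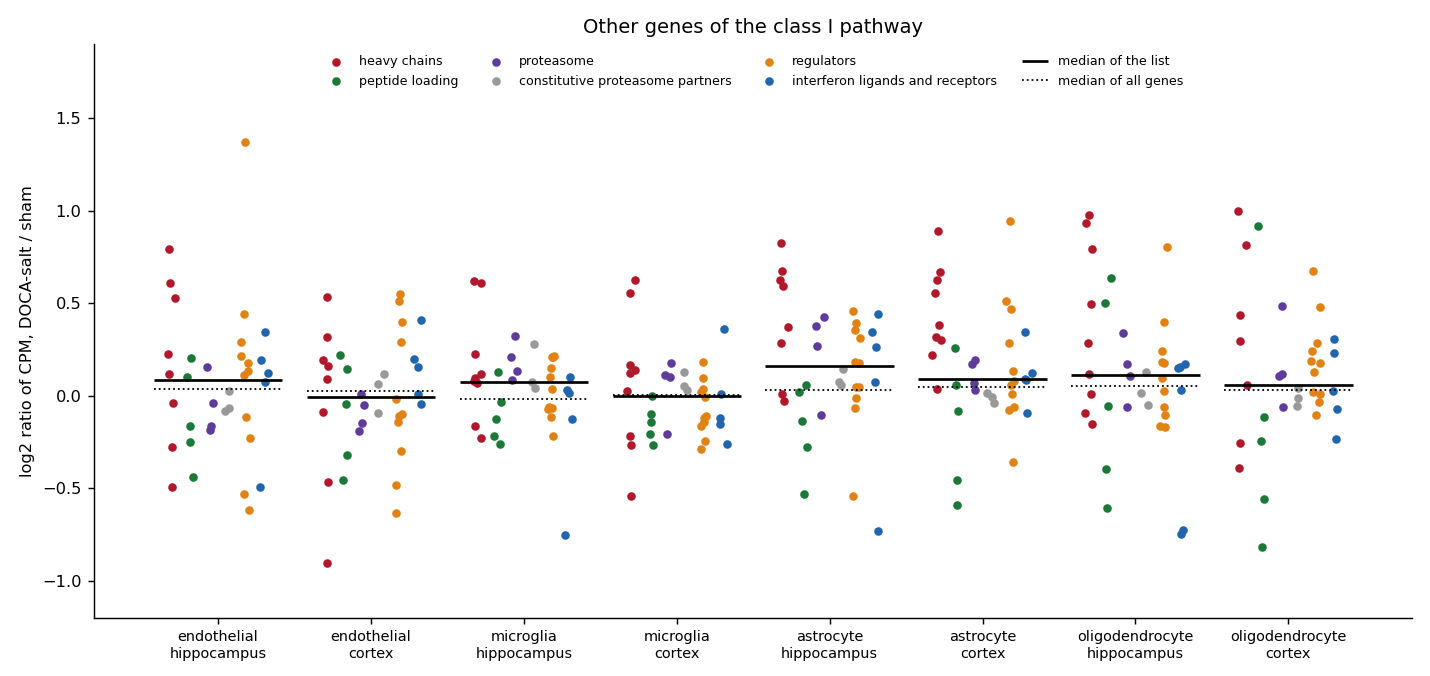
Log2 ratio of CPM in DOCA-salt over sham for each measured gene of the 39 other pathway genes, by class and tissue, coloured by role. Solid lines are the median of the list, dotted lines that of all genes measured. The low green points include Calr, down to a log2 ratio of −0.82 in cortical oligodendrocytes.

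Point medians of the members were slightly higher in hippocampus than in cortex under both treatments. The median log2 ratio of the members, hippocampus over cortex, was 0.14 in DOCA-salt and 0.11 in sham microglia, 0.13 and 0.15 in DOCA-salt and sham oligodendrocytes, 0.35 and 0.11 in astrocytes, and 0.15 and 0.14 in endothelial cells. Over all genes it stayed within −0.01 and 0.01 in the same 8 comparisons. The median of the members' counting intervals excluded 0 in DOCA-salt microglia, at 0.08 to 0.23, and included it in the other 7, for example at −0.04 to 0.18 in sham microglia and −0.37 to 0.54 in sham astrocytes. B2m in astrocytes was 1.26 and 1.35 times as high in hippocampus as in cortex, in DOCA-salt and sham. H2-D1 in endothelial cells was 1.14 times as high under each treatment, and H2-K1 1.12 and 1.18 times. H2-D1 in microglia was at 1.09 times in DOCA-salt and 0.970 times in sham.

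Outside the pathway, the genes most like the mean pattern of the 9 members over 16 profiles, 4 classes in 4 libraries, were Samhd1, Piezo1, Stk24, Akap13 and Lrch1. Their Pearson correlations were 0.993 to 0.995, out of 12705 genes compared. The members themselves correlated at 0.889 for Tap2 to 0.996 for H2-K1. Profiles of a class resemble each other in all libraries, so these values describe the contrast between 4 classes.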

How the data were processed

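The deposited files hold raw counts of UMIs per gene and barcode, from a 3′ droplet kit (SeekOne DD) per the labels. Per the submitters' processing notes the authors used fastp, STAR, Subread and Seurat with the build GRCm38, and their versions, annotation release and counting strand are not given in the sources used here. Cells needed 300 genes or more and no more than 20% of UMIs from mitochondrial genes, and Scrublet in scanpy 1.11.5, at an expected rate of 0.08, removed 4.27 to 6.65% as doublets. Each cell was given the class with the highest summed marker score, if at least 3 markers were detected and the next class scored at most 0.6 of it. These margins were set after marker scores were seen.

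UMIs were summed per class and library and scaled to CPM. Ratios carry conditional binomial intervals, levels exact Poisson and shares Clopper-Pearson ones (scipy 1.17.1). Only the ratios and their intervals were tested on simulated data. A ratio counts as measured with at least 20 UMIs over both libraries. Counts of members and medians were made for the 4 classes with at least 100 cells in every library, and levels and single ratios for the 8 with at least 20. Members were named throughout. Of the 39 other pathway genes those were considered for naming whose interval bound nearest to 1 was among the 3 highest or 3 lowest of a class and tissue, and the genes most like the members were the 5 with the highest correlation among genes with at least 500 UMIs. The members and lists were chosen with earlier results of these data known. Alternatives in the cell classes, depth, filters, doublets, scaling, fold and interferon-gated cells were computed, and 3 more were added after seeing the data. They were the removal of 3 clusters with at least 90% of their cells from 1 library, the subtraction of marker-estimated RNA and equal class shares.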

Additional observations from a re-analysis of the deposited data

Results flagged for a closer look

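H2-K1 in border macrophages had a ratio of DOCA-salt over sham of 1.26 in hippocampus and 0.708 in cortex, with counting intervals on opposite sides of 1. These rest on 96 cells in DOCA-salt and 81 in sham hippocampus and on 65 in DOCA-salt and 54 in sham cortex. Ifnb1, the gene of interferon beta, also had intervals on opposite sides of 1 in microglia, but in the other direction. It was at 0.593 (0.571 to 0.615) in hippocampus and 1.28 (1.22 to 1.35) in cortex. Its level in microglia was 299 CPM in DOCA-salt and 505 CPM in sham hippocampus and 267 CPM in DOCA-salt and 208 CPM in sham cortex. The share of microglia with an Ifnb1 UMI was 31.3% in DOCA-salt and 45.2% in sham hippocampus. In cortex it was 26.4% in DOCA-salt and 27.4% in sham, so there it did not rise with the level. Single microglia held up to 45 to 74 UMIs per library, a spread between cells that the counting intervals do not cover. In astrocytes the Ifnb1 ratio was 0.602 (0.468 to 0.775) in hippocampus and 1.27 (1.07 to 1.51) in cortex, at levels of 15.5 CPM in DOCA-salt and 25.7 CPM in sham hippocampus that are a small part of the microglial ones. The microglial markers in hippocampal astrocytes were at 3.30% of their microglial level in DOCA-salt and 2.62% in sham. In cortical astrocytes they were at 3.38% in DOCA-salt and 2.67% in sham. The part of microglial RNA in the astrocyte Ifnb1 ratios was not tested. With 1 library per group the difference between tissues was not tested for any of the 3.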

How the results depend on the processing

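No paired analysis was possible because no result here comes from a test, each group being 1 library without a replicate number, and no replicate could be left out. A fit over both tissues with tissue as a block was not run, since it would take the tissues as replicates. The median log2 ratio of the members in cortical oligodendrocytes, 0.42, was 0.70 over 7 members with marker-estimated RNA subtracted. In hippocampal oligodendrocytes B2m, at 0.16, went to −0.011 under the subtraction, which is almost no difference but is counted below as reversed. Medians under the other settings stayed within the median bounds of the members' counting intervals, which are wide. Within them the median of cortical oligodendrocytes was 0.18 with the mean of each cell's own CPM, and the endothelial ones, −0.07 in hippocampus and −0.10 in cortex, changed sign to 0.03 and 0.02 without interferon cells. Counts of pairs of a member and a class, 36 per tissue, at least 1.5-fold higher were unstable. The 2 of hippocampus became 4 with classes from joint clusters, with doublets kept or with the mean of each cell's own CPM, 1 without clusters held by 1 library, 11 counting all at least 25% higher and 0 at a fold of 2. The 2 of cortex became 4 with joint clusters, 1 with thinned cells, median scaling or the mean over cells, 7 counting all at least 25% higher and 0 at a fold of 2. The 0 lower in cortex became 2 with the mean over cells and 2 at the same smaller fold. The median log2 level of endothelial cells over microglia, 0.08, was 0.17 with thinned cells, and that of astrocytes over oligodendrocytes, 0.87, was 1.01 with joint clusters, 0.97 with thinned cells and 0.77 with doublets kept. The cause was not tested in any case. Of the values for single members, 686 stayed within their counting interval, 40 moved beyond it and 1 reversed. The 686 include 70 from dropping the minimum of UMIs, which cannot change a single ratio. A value was called reversed only where the main interval excluded a ratio of 1, so other changes of sign are not counted. Depth limits Nlrc5 and Tap1 in glia, and 1 library per group limits every treatment and tissue ratio.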

Other observations

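Classes too small for a treatment ratio held some of the highest heavy chain levels. B cells, 12 to 56 per library, had 2411 and 2309 CPM of B2m in DOCA-salt hippocampus and cortex and 3134 and 2308 CPM in sham hippocampus and cortex. Their H2-D1 level was 1913 and 1936 CPM in DOCA-salt hippocampus and cortex and 2090 and 1939 CPM in sham hippocampus and cortex, close to T or NK cells. The 41 neutrophils of DOCA-salt hippocampus had 1978 CPM of H2-D1, 300.5 CPM of H2-K1 and 1130 CPM of B2m, and the 9 of DOCA-salt cortex had 4148, 514 and 1440 CPM. Ependymal cells of hippocampus, which line the ventricles, had 264 CPM of H2-K1 in DOCA-salt (60 cells) and 260.3 CPM in sham (61 cells), above the 128 to 151 CPM of astrocytes.

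Cells with erythroid markers had B2m ratios of DOCA-salt over sham of 0.306 in hippocampus and 0.2997 in cortex. The 8 endothelial markers in the same cells summed to 484 CPM in DOCA-salt and 3573 CPM in sham hippocampus and to 544 CPM in DOCA-salt and 3178 CPM in sham cortex, and their part in the ratios was not tested.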
